A study of Homo sapiens with 12 samples.

Results

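A set of 10 genes that mark epithelial or mesenchymal identity were followed by RNA-seq in PC3 and DU145, human cell lines established from metastatic prostate cancer. They were taken by name: CDH1, EPCAM, ESRP1 and GRHL2 on the epithelial side, and CDH2, VIM, ZEB1, ZEB2, SNAI2 and TWIST1 on the mesenchymal side. Of these 10 genes, 9 had a row among the 32077 genes of the count table, and TWIST1 was not analysed here. Both lines, listed as wild type, were cultured for 48 hours with vehicle or with 2.5 uM pentamidine, an antiprotozoal diamidine, which gave 4 groups of 3 libraries and 12 libraries in all. The libraries were made from poly(A)-selected RNA, and each line stands for 1 tumour, with no normal prostate cells in the series. The labels do not say whether replicates came from separate cultures, so the p-values measure only the spread between these libraries. Total counts ran from 13514195 to 15131436 reads per library, and 3 reads, the limit that a count of 0 allows, corresponded to 0.198 to 0.222 CPM, reads scaled by the library total as in the deposited table. Such limits cover counting error only.

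Epithelial cells hold each other through E-cadherin, the product of CDH1, whose cytoplasmic tail is tied to actin by catenins. In an epithelial to mesenchymal transition, transcription factors of the ZEB, SNAI and TWIST families bind E-box motifs and repress CDH1 and other epithelial genes, while N-cadherin (CDH2) and the intermediate filament protein vimentin (VIM) increase. GRHL2 and the splicing regulator ESRP1 act on the epithelial side. Prostate carcinoma lines are known to differ widely along this axis, and DU145 is usually described as an E-cadherin-positive line.

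The labelled cell type was checked before any comparison, and several marker genes went against the labels. CDH1 had at most 10 reads, EPCAM, a surface adhesion molecule of epithelia, at most 2 and GRHL2 at most 1 read in any of the 12 libraries. Both lines are generally known to express EPCAM. Among 9 markers of prostate carcinoma epithelium, 7 were in the table. KRT19 had at most 3 reads, KRT5 at most 1, KLK3 at most 2 and TP63 at most 7 reads per library. According to the study, neither line expresses prostate-specific antigen, the product of KLK3, so the low KLK3 went with the labels. No conflict with the labels is read from KRT5 or TP63. Of the keratins of simple epithelia, KRT8 and KRT18 were present in both lines. KRT8 had 286 to 307 reads in the PC3 vehicle libraries and 37461 to 38812 in the DU145 vehicle libraries, and KRT18 had 2125 to 2320 and 11991 to 13423 reads. Reads of both keratins may be shared with their many processed pseudogenes.

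PC3 is known to lack CTNNA1 (alpha-catenin) through deletion. In the PC3 vehicle libraries CTNNA1 nevertheless had 6003 to 6714 reads, against 5711 to 5906 in the DU145 vehicle libraries. The cause was not tested, and below PC3 and DU145 mean the libraries labelled PC3 and DU145. Every direction between the lines rests on those labels. All 7 fibroblast markers were in the table, with summed levels of 0.676 to 3.12 CPM per library. DCN had at most 1 read, PDGFRA, LUM and THY1 at most 2, PDGFRB at most 5, COL3A1 at most 20 and COL1A1 3 to 40. The 3 of 4 endothelial markers in the table summed to 0.071 to 1.16 CPM. Of the leukocyte markers, PTPRC was at 0 in 11 of 12 libraries and CD14 had 1 to 8 reads in each.

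**Figure D1:**
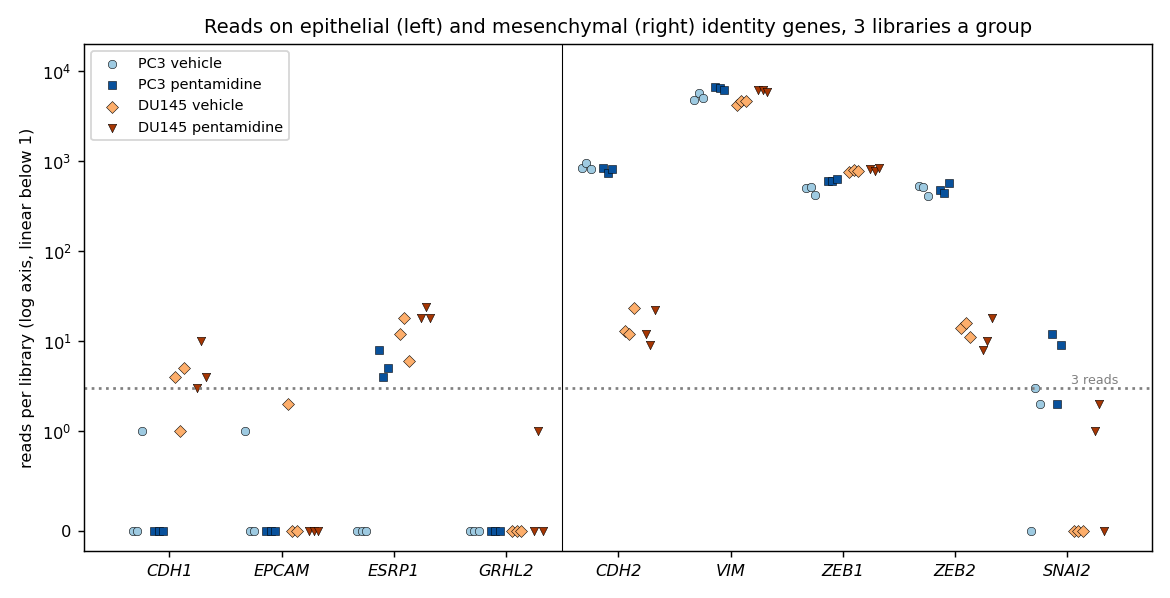
Reads per library (vertical axis, logarithmic above 1 and linear below) for the 9 genes with a row in the table, epithelial genes left of the vertical line and mesenchymal genes right of it. Each point is 1 library and the dotted line marks 3 reads. No epithelial gene exceeded 24 reads, while VIM and ZEB1 lay above 400 reads in every library and CDH2 and ZEB2 did so only in PC3.

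The E-cadherin gene CDH1 (chromosome 16, 68737225 to 68835548, plus strand, coordinates in GRCh38 as deposited) was at or near 0 in all groups. Its counts were 0, 0 and 1 in PC3 vehicle, 0 in each PC3 pentamidine library, 4, 1 and 5 in DU145 vehicle and 3, 10 and 4 in DU145 pentamidine. The vehicle groups overlapped at 1 read. Summed over the 3 vehicle libraries of each line, 1 read stood against 10, a PC3 to DU145 ratio of 0.1 (exact 95% counting interval 0.00231 to 0.705, not covering replicate spread). CDH1 was too low for the filter of the count test, and the test without that filter gave an adjusted p of 0.0816 for the line difference. In DU145 pentamidine gave 17 reads against 10, a ratio of 1.73 (0.747 to 4.22), so a change was not detectable at this depth.

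EPCAM (chromosome 2, 47345158 to 47387601, plus strand) had 1 read in 1 PC3 vehicle library, 2 reads in 1 DU145 vehicle library and none in the other 10. GRHL2 (chromosome 8, 101492432 to 101669726, plus strand), a transcription factor that sustains epithelial junction genes, had a single read, in a DU145 pentamidine library. No level was detectable for either gene in any group beyond the limit of 3 reads.

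ESRP1 (chromosome 8, 94641074 to 94707466, plus strand), which directs epithelial splice forms, was the epithelial gene with the most reads. It had none in the PC3 vehicle libraries, 8, 4 and 5 reads in PC3 pentamidine, 12, 18 and 6 in DU145 vehicle and 18, 24 and 18 in DU145 pentamidine. The 3 PC3 vehicle libraries lay below all others. For a ratio, the PC3 vehicle total of 0 was set to the floor of 3 reads over the group. ESRP1 was then 12-fold lower in PC3 than in DU145 under vehicle, and 5.62-fold higher in PC3 with pentamidine than without. These ratios take the 36 DU145 vehicle and 17 PC3 pentamidine reads as exact. They are therefore not lower bounds once the counting error of those reads is included. Neither comparison passed the filter on low counts, which admitted ESRP1 only in DU145 and in the fit of all 12 libraries. The edgeR test without the filter gave an adjusted p of 3.1e-08 for the line difference and 0.00145 for the PC3 response, fits in which 35.2% and 21.2% of all genes passed. In DU145 the pentamidine libraries reached at least the highest vehicle count, and the log2 fold change of 0.70 (95% interval -0.02 to 1.42) did not pass the edgeR test (adjusted p = 0.137). All these values rest on fewer than 25 reads per library.

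VIM (chromosome 10, 17228259 to 17237593, plus strand) was the most abundant of the 9 genes per kilobase of exon in every group. Its level was 325, 375 and 370 CPM in PC3 vehicle, 454, 457 and 414 in PC3 pentamidine, 303, 316 and 310 in DU145 vehicle and 446, 424 and 416 in DU145 pentamidine. In both lines all pentamidine libraries lay above all vehicle libraries. ZEB1 (chromosome 10, 31318495 to 31529814, plus strand), a repressor of CDH1, stood at 34.4, 34.0 and 31.2 CPM in PC3 vehicle and 41.0, 42.2 and 43.1 in PC3 pentamidine. In DU145 it stood at 54.2, 53.8 and 51.9 CPM with vehicle and 58.7, 52.6 and 59.2 with pentamidine. All DU145 libraries were above all PC3 libraries, and the DU145 treatment groups overlapped.

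CDH2 (chromosome 18, 27950966 to 28177446, minus strand) separated the lines most clearly among the 9 genes by its counts. PC3 had 837, 945 and 815 reads with vehicle and 842, 732 and 807 with pentamidine. DU145 had 13, 12 and 23 reads with vehicle and 12, 9 and 22 with pentamidine. ZEB2 (chromosome 2, 144364364 to 144524583, minus strand), the paralogue of ZEB1, followed the same order of lines, with 529, 514 and 409 reads in PC3 vehicle and 480, 446 and 564 in PC3 pentamidine. In DU145 it had 14, 16 and 11 reads with vehicle and 8, 10 and 18 with pentamidine. Both genes overlapped between treatment groups in DU145.

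SNAI2 (chromosome 8, 48917768 to 48921740, minus strand), which encodes the CDH1 repressor SLUG, had 0, 3 and 2 reads in PC3 vehicle and 12, 2 and 9 in PC3 pentamidine. It had no read in DU145 vehicle and 1, 2 and 0 reads in DU145 pentamidine. The PC3 groups overlapped at 2 and 3 reads. The PC3 ratio was 4.56 (exact 95% counting interval 1.7 to 15.4) on 23 against 5 reads. It was too low for the filter, and without it the PC3 response had an adjusted p of 0.0356.

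**Figure D2:**
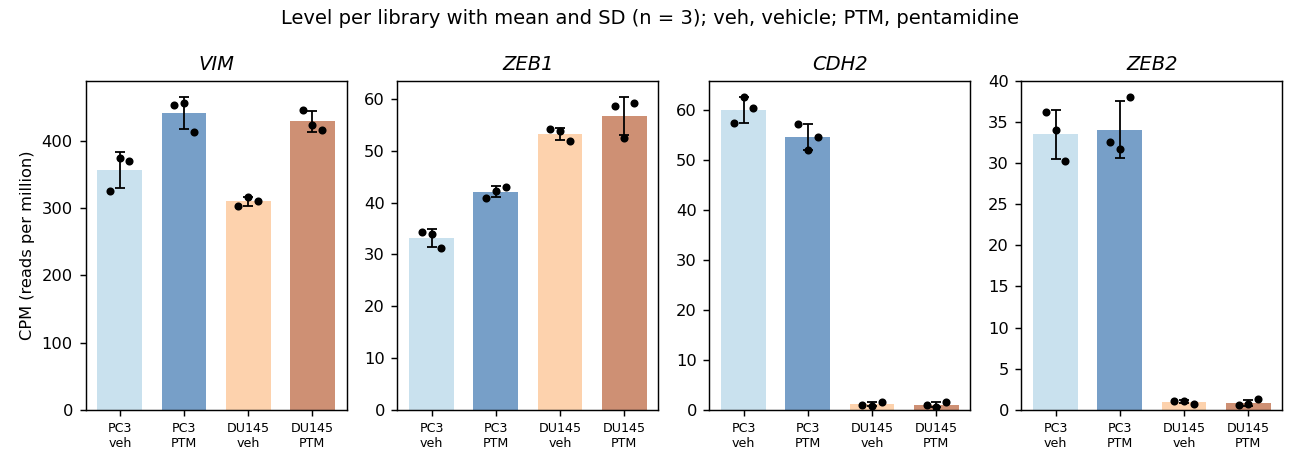
CPM of VIM, ZEB1, CDH2 and ZEB2 in each library (points), with group mean (bars) and SD (error bars, n = 3) on axes that start at 0. VIM was higher with pentamidine in both lines, ZEB1 was higher with pentamidine in PC3, and CDH2 and ZEB2 were near 1 CPM in DU145.

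Levels of different genes were set side by side only per kilobase of the union of annotated exons. In PC3 vehicle VIM had 69.1 CPM per kilobase, CDH2 12.1, ZEB1 3.84 and ZEB2 1.34, and no 2 of these neighbours overlapped between libraries. In DU145 vehicle VIM had 60.1 and ZEB1 6.16 CPM per kilobase, and all others were under 1. CDH2 at 0.222 and ESRP1 at 0.171 CPM per kilobase overlapped between libraries, as did ZEB2 at 0.0378 and CDH1 at 0.0374. The exon union of ZEB2 spans 25058 bases, so its level per kilobase is low for its count. Reads from antisense genes could not be told apart from those of their partners, since no strand setting of the counting is stated. The antisense genes themselves had few reads per library, 3 to 17 for VIM-AS1, 20 to 51 for ZEB1-AS1 and 0 to 1 for ZEB2-AS1.

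The first comparison asked how the lines differed under vehicle. PC3 had far more CDH2 and ZEB2 than DU145, less ZEB1, and for VIM a difference that did not pass the test. In such bulk libraries, fewer cells that express a gene and less of its RNA per cell cannot be told apart. CDH2 averaged 60.0 ± 2.59 CPM (SD, n = 3) in PC3 and 1.10 ± 0.388 in DU145, a log2 fold change of 5.67 (SE 0.14) or 50.9-fold (edgeR quasi-likelihood test, adjusted p = 3.0e-15). ZEB2 averaged 33.5 ± 3.00 and 0.948 ± 0.186 CPM, 33.2-fold higher in PC3 (log2 fold change 5.05, SE 0.15, adjusted p = 6.6e-14 by edgeR). ZEB1 went the other way, with 33.2 ± 1.75 CPM in PC3 and 53.3 ± 1.21 in DU145, and was 1.69-fold lower in PC3 (adjusted p = 3.3e-08 by edgeR). So the 2 ZEB paralogues had opposite orders between the lines.

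VIM averaged 357 ± 27.3 CPM in PC3 and 310 ± 6.63 in DU145. The groups did not overlap, but the log2 fold change of 0.12 (95% interval 0.01 to 0.23) missed the threshold by edgeR (adjusted p = 0.0615). Without PC3 vehicle replicate 1, its lowest PC3 library, VIM passed at a log2 fold change of 0.20 (adjusted p = 0.0002 by edgeR), and with library size as the only scaling it passed at 0.20 as well (adjusted p = 0.0032 by edgeR). Of the 4 identity genes tested in this comparison, 2 were higher and 1 was lower in PC3 at an adjusted p below 0.05. Among 14394 genes in this fit, the background was 65.3% passing, with 31.5% higher in PC3 and 33.8% lower, and 69.6% had groups that did not overlap, as all 4 identity genes did. CDH2 and ZEB2 also exceeded a log2 fold change of 1, as 19.2% of all tested genes did.

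**Figure D3:**
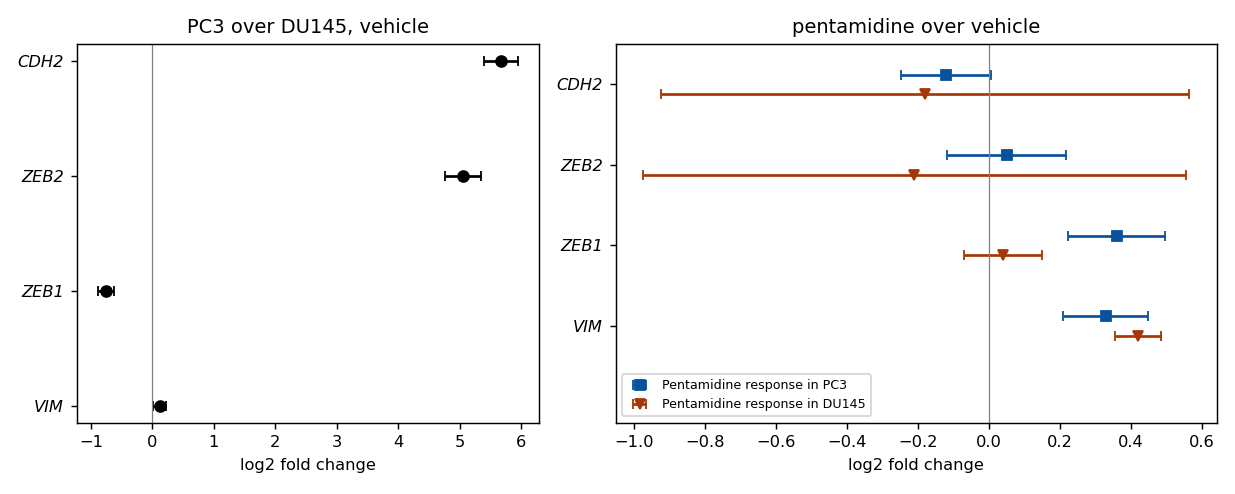
Log2 fold changes (horizontal axes) of the 4 genes tested in every comparison, with 95% intervals, for PC3 over DU145 under vehicle (left) and for pentamidine over vehicle in each line (right, on its own scale). CDH2 at 5.67 and ZEB2 at 5.05 stand far from 0 on the left, while on the right VIM in both lines and ZEB1 in PC3 are the intervals above 0.

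The next comparisons asked what pentamidine changed in each line. In PC3, VIM and ZEB1 rose and CDH2 and ZEB2 did not pass the test. VIM went from 357 ± 27.3 to 442 ± 23.9 CPM (SD, n = 3), a rise of 25.4% (log2 fold change 0.33, SE 0.061, adjusted p = 3.2e-04 by edgeR). ZEB1 went from 33.2 ± 1.75 to 42.1 ± 1.06 CPM, a rise of 28.2% (log2 fold change 0.36, SE 0.07, adjusted p = 5.1e-04 by edgeR). CDH2 averaged 54.6 ± 2.62 CPM after pentamidine, with a log2 fold change of -0.12 (95% interval -0.25 to 0.01, adjusted p = 0.151 by edgeR). ZEB2 averaged 34.1 ± 3.49 CPM, with a log2 fold change of 0.05 (95% interval -0.12 to 0.21, adjusted p = 0.698 by edgeR). Hence 2 of the 4 genes tested rose and none fell, against 43.4% of all 13861 genes passing and 21.7% in each direction. In CPM the groups of VIM, ZEB1 and CDH2 did not overlap, as for 52.2% of the genes tested. None of the 4 passed with a log2 fold change past 1, which 4.75% of the genes tested did.

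In DU145, VIM alone among the 5 identity genes tested passed. It went from 310 ± 6.63 to 429 ± 15.6 CPM, a rise of 33.6% (log2 fold change 0.42, SE 0.033, adjusted p = 2.1e-15 by edgeR). ZEB1 went from 53.3 ± 1.21 to 56.8 ± 3.69 CPM, with a log2 fold change of 0.04 (95% interval -0.07 to 0.15, adjusted p = 0.609 by edgeR). The intervals of CDH2 (-0.92 to 0.56) and ZEB2 (-0.98 to 0.56) were wide, since each had at most 23 reads per DU145 library. Of all 14313 genes tested in DU145, 34.0% passed, 17.2% higher and 16.8% lower with pentamidine, and 44.1% had groups that did not overlap, as VIM and ESRP1 did. No identity gene passed with a log2 fold change past 1, which 2.03% of the genes did.

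Whether the response differed between the lines was tested as an interaction over all 12 libraries. The ZEB1 response was higher in PC3 than in DU145 by 0.32 on the log2 scale (SE 0.09, adjusted p = 0.0115 by edgeR). For VIM the difference was -0.09 (95% interval -0.23 to 0.04, adjusted p = 0.403 by edgeR), so no difference was shown and the interval bounds its size. ESRP1 passed as well (adjusted p = 0.015 by edgeR), although its fitted difference of 4.82 depends on the prior count, because the PC3 vehicle libraries held none of its reads, and it was lost with limma on log2(CPM + 1) at 0.06 (adjusted p = 0.897). Thus 2 of 5 genes tested passed, against 20.4% of 15226 genes, 10.2% higher and 10.3% lower in PC3. ESRP1 entered this fit only through its DU145 libraries, so no shared direction is read from these 2 genes. CDH2 (adjusted p = 0.934) and ZEB2 (adjusted p = 0.681) did not pass by edgeR.

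VIM and ZEB1, the identity genes that rose with pentamidine in PC3, lie on the same chromosome, and their promoters are shown to let both be read beside the ZEB and SNAI binding motif. Promoter entries of the RefSeq table (assembly GRCh38.p14) matched 4 of the 10 genes by symbol. Where VIM or ZEB1 had several entries, the one furthest upstream was taken, so the matches below hold for that start only. The VIM window is chr10:17227991-17228240 and the ZEB1 window chr10:31318167-31318416, each the 250 bases before the RefSeq start on the plus strand, 5′ to 3′. The VIM window lies within an intron of the antisense gene VIM-AS1, and the ZEB1 window overlaps an exon of ZEB1-AS1. Capitals mark the E-box CAGGTG or its reverse complement CACCTG and the GC box GGGCGG or its reverse complement CCGCCC.
VIM: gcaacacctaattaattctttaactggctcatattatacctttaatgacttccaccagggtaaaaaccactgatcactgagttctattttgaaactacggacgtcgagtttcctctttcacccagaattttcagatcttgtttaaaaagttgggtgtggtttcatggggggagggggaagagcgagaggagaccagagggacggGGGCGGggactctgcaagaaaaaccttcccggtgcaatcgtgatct
ZEB1: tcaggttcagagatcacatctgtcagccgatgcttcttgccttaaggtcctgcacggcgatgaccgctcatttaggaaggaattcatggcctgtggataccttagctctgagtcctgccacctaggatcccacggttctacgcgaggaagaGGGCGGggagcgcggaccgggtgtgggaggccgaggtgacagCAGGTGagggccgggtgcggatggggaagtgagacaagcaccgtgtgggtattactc

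The ZEB1 window held 1 E-box, starting 57 bases before the RefSeq start, and 1 GC box, starting 99 bases before it. The VIM window held 1 GC box, starting 46 bases before the start, and these E-box letters did not occur in it. Among all 35116 windows of 250 bases in the table, 17.5% held the E-box and 42.6% the GC box on either strand, and the matches printed do not overlap each other. The matches are descriptions of letters and not of binding.

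Cadherins work through catenins, and all 4 catenin genes were expressed in both lines although CDH1 was not detectable beyond a few reads. CTNNB1 (beta-catenin) had 5372 to 5837 reads in PC3 vehicle and 8431 to 8885 in DU145 vehicle, 1.63-fold lower in PC3 (adjusted p = 4.9e-10 by edgeR). CTNND1 (p120-catenin) was 1.48-fold lower in PC3 (adjusted p = 1.9e-08) and JUP (plakoglobin), a catenin shared with desmosomes, 2.81-fold lower (adjusted p = 8.5e-11, both by edgeR). CTNNA1 averaged 441 ± 5.12 CPM in PC3 and 401 ± 11.5 in DU145, with a log2 fold change of 0.06 (adjusted p = 0.261 by edgeR) that passed at 0.14 when library size was the only scaling (adjusted p = 0.00897). The last 2 catenins moved differently with the drug. CTNNA1 rose in PC3 (log2 fold change 0.38, adjusted p = 3.3e-06) and did not pass in DU145 (-0.03, adjusted p = 0.456), a difference of 0.41 (adjusted p = 1.1e-06 by edgeR). JUP had -0.28 in PC3 (adjusted p = 0.0543, passing in 5 alternatives at 0.0127 to 0.0448, the latter without vehicle replicate 2) and rose by 0.23 in DU145 (adjusted p = 0.00161), a difference of -0.51 (adjusted p = 0.00199 by edgeR). CTNND1 fell in both lines, by 0.22 in PC3 (adjusted p = 0.00177) and by 0.16 in DU145 (adjusted p = 1.2e-04 by edgeR). CTNNB1 fell by 0.11 in DU145 (adjusted p = 0.00378 by edgeR), a call lost with library size as the only scaling (-0.06, adjusted p = 0.129), and had -0.03 in PC3.

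The genes around the 9 were counted in 4 lists. Some listed genes passed the filter between the lines only through the line where they are high, which fixed their direction. Among them were DSP, PKP3, TCF4, CDH6 and COL6A3. For junction genes (26 in the table), 18 were tested between the lines, of which 4 were higher and 11 lower in PC3 (all genes, 31.5% and 33.8%), with a median log2 fold change of -0.42 beside -0.01 over all genes tested. The desmosome held both extremes. DSP (desmoplakin) had 2 to 5 reads in PC3 vehicle and 1021 to 1091 in DU145 vehicle (log2 fold change -8.47, adjusted p = 1.3e-16 by edgeR), whereas PPL (periplakin, a desmosome-associated plakin) was higher in PC3 by 3.19 and PKP3 (plakophilin) by 3.77 on 35 to 50 against 1 to 4 reads. DSG2 (desmoglein) was higher in PC3 by 1.11, and PKP2 and the tight junction protein F11R were lower at -1.59 and -1.58.

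With pentamidine, junction genes moved in both directions. In PC3 4 rose and 6 fell of 18, where 21.7% of all genes moved each way, with a median of -0.06 beside 0.00 over all genes. CGN (cingulin, a tight junction plaque protein) fell from 21.4 ± 1.76 to 13.1 ± 0.0978 CPM (log2 fold change -0.70, adjusted p = 1.9e-05 by edgeR). In DU145 2 rose and 6 fell of 18, beside 17.2% and 16.8% of all genes, with a median of -0.07 beside 0.01. No junction gene passed with a log2 fold change past 0.5 there.

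For the wider epithelial programme (25 genes listed, 23 in the table), 6 genes had at most 3 reads in every library. Between the lines 11 were tested, 4 higher and 6 lower in PC3 (all genes, 31.5% and 33.8%), with a median log2 fold change of -1.56. RBM47, CD24 and ELF3 passed the filter only through their DU145 libraries and FOXA1 only through PC3. The filter thus fixed their directions, and no shared direction is read from the median. SPINT2, a membrane serine protease inhibitor, had 113 to 155 reads in PC3 vehicle against 2368 to 2544 in DU145 vehicle (log2 fold change -4.27, adjusted p = 7.8e-16 by edgeR). RBM47, an RNA-binding protein, had 0 to 2 against 28 to 33 reads, and CD24, a surface glycoprotein, 0 to 3 against 18 to 25. AP1M2, an epithelial sorting adaptor, was higher in PC3 by 2.53 on 717 to 964 against 129 to 152 reads, and the pioneer factor FOXA1 by 2.68 on 62 to 73 against 4 to 18 reads.

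With pentamidine 4 genes of the programme rose and 1 fell of 8 tested in PC3 (median 0.35) and of 11 tested in DU145 (median 0.21). Of all genes, 21.7% moved each way in PC3, and in DU145 17.2% rose and 16.8% fell. ERBB3, a receptor tyrosine kinase, rose in both, from 9.07 ± 0.740 to 17.3 ± 1.24 CPM in PC3 (log2 fold change 0.95, adjusted p = 3.9e-06) and from 4.54 ± 0.454 to 7.33 ± 0.390 CPM in DU145 (0.64, adjusted p = 0.00103, both by edgeR). SPINT2 rose by 0.50 in PC3, and in DU145 it went from 170 ± 4.71 to 203 ± 5.82 CPM without overlap of the groups. TFAP2A, a transcription factor, rose by 0.53 in DU145 and by 0.32 in PC3 (adjusted p = 0.00122 by edgeR). FOXA1 fell by 0.65 in PC3 (adjusted p = 0.016 by edgeR), a call lost without vehicle replicate 3 (adjusted p = 0.0524) or pentamidine replicate 1 (adjusted p = 0.088). GRHL1, a paralogue of GRHL2, fell by 0.89 in DU145 (adjusted p = 2.2e-05 by edgeR) from 7.65 ± 1.31 to 4.30 ± 0.654 CPM.

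Further regulators of the transition (18 listed, 17 in the table) did not share a direction between the lines. Of 14 tested, 5 were higher and 6 lower in PC3 (all genes, 31.5% and 33.8%), with a median of -0.13. TCF4, an E-protein, had 68 to 87 reads in PC3 vehicle against 0 to 1 in DU145 vehicle, SNAI3 was higher in PC3 by 2.37 and FOXC2 by 1.46. SNAI1, which encodes SNAIL, was lower in PC3 by 3.32-fold (2.01 ± 0.630 against 6.38 ± 0.685 CPM, adjusted p = 2.4e-06 by edgeR), and ETS1 by 2.45-fold (adjusted p = 2.6e-13 by edgeR).

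In PC3 3 of 14 regulators rose and 4 fell with pentamidine (median -0.24), and in DU145 3 of 12 rose and 2 fell (median 0.02). The shares that passed among all genes were 43.4% in PC3 and 34.0% in DU145. ETS1 moved in opposite directions. It rose in PC3 from 225 ± 6.47 to 415 ± 8.66 CPM (log2 fold change 0.90, adjusted p = 9.1e-11) and fell in DU145 from 522 ± 9.23 to 388 ± 14.1 CPM (-0.48, adjusted p = 2.4e-18), an interaction of 1.38 (adjusted p = 2.6e-16, all by edgeR). RUNX2, the osteoblast factor, rose in both, by 0.73 in PC3 and 0.71 in DU145. HMGA2, an architectural chromatin protein, fell in PC3 from 175 ± 6.57 to 91.8 ± 4.06 CPM (log2 fold change -0.91, adjusted p = 4.7e-10 by edgeR). In DU145 HMGA2 went from 221 ± 3.74 to 191 ± 4.65 CPM, a log2 fold change of -0.27, and the groups did not overlap.

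Genes of mesenchymal structure (42 listed, 41 in the table) had 12 higher and 12 lower in PC3 of 27 tested (all genes, 31.5% and 33.8%) and a median of 0.05. AXL, a receptor tyrosine kinase, had 1741 to 1869 reads in PC3 vehicle and 2 to 4 in DU145 vehicle (log2 fold change 8.94, adjusted p = 1.7e-17 by edgeR). CDH6 (K-cadherin) had 22 to 33 against 0 to 2 reads. The chains of collagen VI were divided. COL6A3 had 90 to 115 reads in PC3 against 0 to 2 in DU145, whereas COL6A2 had 1 to 8 against 487 to 545 and COL6A1 8 to 12 against 189 to 220. COL5A2 was lower in PC3 at a log2 fold change of -4.35 (34.8 ± 0.465 against 671 ± 13.7 CPM, adjusted p = 9.1e-19 by edgeR).

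Pentamidine raised 7 and lowered 7 of 25 tested structure genes in PC3 (median 0.00), and raised 3 and lowered 7 of 23 in DU145 (median -0.01), beside 43.4% and 34.0% of all genes passing. MAP1B, a microtubule-associated protein, rose in PC3 from 13.9 ± 0.479 to 52.6 ± 1.05 CPM (log2 fold change 1.94, adjusted p = 1.4e-12) and in DU145 from 18.8 ± 1.17 to 29.8 ± 2.01 CPM (0.62, adjusted p = 1.6e-08, both by edgeR). In PC3 COL6A3 rose by 1.17 and TNC (tenascin C) by 1.07, while CDH6 fell by 1.98 on 22 to 33 against 4 to 9 reads. The hyaluronan receptor CD44 fell by 0.68 in PC3. In DU145 CD44 went from 378 ± 4.25 to 300 ± 6.47 CPM (log2 fold change -0.38), and the groups did not overlap. COL5A2 fell in DU145 by 0.54 (adjusted p = 5.1e-21 by edgeR).

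**Figure D4:**
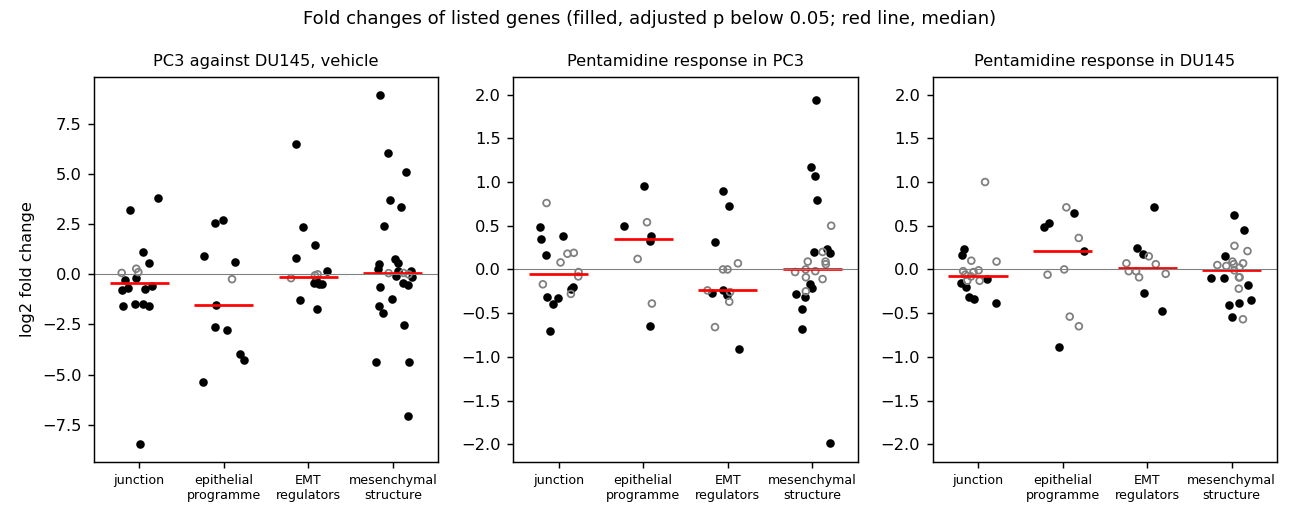
Log2 fold changes of the tested genes of the 4 lists (1 point a gene) in the comparison of lines (left) and the pentamidine response of each line (middle and right, on a narrower scale than the left), with filled points at an adjusted p below 0.05 and red lines at the medians. The median of the epithelial programme lies at -1.56 between the lines and at 0.35 and 0.21 in the PC3 and DU145 responses, that of the junction genes at -0.42 between the lines and that of the regulators at -0.24 in PC3. Some genes entered the left panel only through the line where they are high.

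**Figure D5:**
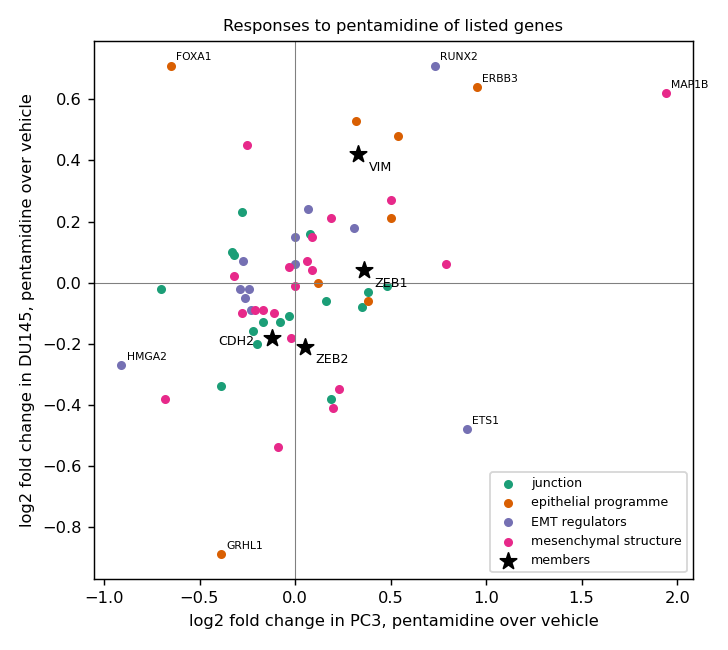
Log2 fold change with pentamidine in PC3 (horizontal) and DU145 (vertical) for genes tested in both lines. Stars are CDH2, VIM, ZEB1 and ZEB2. VIM lies in the upper right at 0.33 and 0.42, ZEB1 at 0.36 and 0.04, and ETS1 in the lower right at 0.90 and -0.48.

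The epithelial keratins used for the label check also differed. KRT8 was 136-fold lower in PC3 than in DU145 under vehicle (20.5 ± 1.37 against 2640 ± 83.2 CPM, adjusted p = 3.2e-20 by edgeR) and KRT18 6.00-fold lower (157 ± 13.5 against 890 ± 23.3 CPM, adjusted p = 2.0e-15 by edgeR). With pentamidine KRT18 rose in PC3 by 0.35 (adjusted p = 6.0e-04) and fell in DU145 by 0.39 (adjusted p = 1.1e-15, both by edgeR). KRT8 fell in DU145 by 0.56 (adjusted p = 1.9e-23 by edgeR) and had -0.22 in PC3 (adjusted p = 0.0868).

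For a description of likeness, log2 CPM was correlated over the 12 libraries with all genes of at least 5 CPM on average. The 4 groups are shared by every gene, so such values follow the group means and carry no test. The genes most like VIM were NQO1 (Pearson r 0.98), FLOT1 (0.978) and NAXD (0.978). Those most like ZEB1 were HOXD9 (0.991), RNF187 (0.989) and PTPRG (0.987). For CDH1 they were SEMA4G (0.933), SPIDR (0.927) and ZFYVE26 (0.927), on CDH1 counts of 0 to 10.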

How the data were processed

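RNA-seq of 12 libraries (2 cell lines, vehicle or pentamidine, 3 replicates) was used, grouped by title. Per the labels and the study's methods, poly(A) RNA was sequenced in pairs, and the submitters' processing notes name HISAT2 2.1.0, DESeq 1.18.1 and GRCh38. The counter, annotation release and strand setting are not given in the sources used here. The authors deposited a table of raw counts per gene. A second deposited table, labelled FPKM by the authors, held CPM, since all 384924 values equalled the count scaled by library total within 1e-05. Their comparison tables (fold changes and p-values) were not used.

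Of 33595 entries with an Ensembl identifier, 1 per gene name and set of counts was kept (32077 genes). Counts were tested in R 4.3.3 with edgeR 4.0.16 (quasi-likelihood fit, TMM scaling, filterByExpr with its minimum count of 10), adjusting p-values after Benjamini and Hochberg across the genes tested, on the 6 libraries of each comparison or on all 12 for the interaction. A gene was said to rise, fall or pass at an adjusted p below 0.05. Log2 CPM used a prior count of 2. Total counts of 13514195 to 15131436 give a floor of 3 reads per library.

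The identity genes and lists were chosen with earlier results of these data known. Named besides them were, per list, comparison and direction, at most 3 genes with the largest change (adjusted p below 0.05, no overlap, absolute log2 fold change above 1 between lines or 0.5 for a response), the 4 catenins, and the 3 genes most like CDH1, VIM and ZEB1. KRT8 and KRT18 were added after their values were seen. Some marker genes are not reported here. Alternatives were DESeq2 1.42.0, limma 3.58.1 on log2(CPM + 1) and log2(CPM + 0.1), planned for FPKM and run on CPM, RLE or library-size scaling, other filters, no mitochondrial genes, 1 fit of all libraries, a replicate block, an adjusted p below 0.01 and leaving out each library.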

Additional observations from a re-analysis of the deposited data

Results flagged for a closer look

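The pentamidine response differed between PC3 and DU145, by the interaction term of edgeR's quasi-likelihood test over 12 libraries, for 15 of the genes named above. Over all 15226 genes tested, 20.4% passed this term. Many of the 15 were named for a large change in these same data, so their number is no result about the lists. Positive values mean a higher log2 fold change in PC3.

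Among the identity genes, ZEB1 differed by 0.32 (adjusted p = 0.0115) and was higher with pentamidine in 3 of 3 PC3 libraries than in any PC3 vehicle library. ESRP1 differed by 4.82 (adjusted p = 0.015) on 0 reads in PC3 vehicle, so the size is no measure of the change.

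Among junction genes and keratins, CTNNA1 differed by 0.41 (adjusted p = 1.1e-06), JUP by -0.51 (adjusted p = 0.00199), CGN by -0.67 (adjusted p = 1.5e-05), KRT8 by 0.34 (adjusted p = 0.00279) and KRT18 by 0.74 (adjusted p = 3.0e-08).

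In the epithelial programme, AP1M2 differed by 0.44 (adjusted p = 0.029) and FOXA1 by -1.36 (adjusted p = 0.0477). Leaving out single libraries ended both calls, FOXA1 reaching an adjusted p of 0.181 without DU145 vehicle replicate 3 and AP1M2 0.106 without DU145 vehicle replicate 2. The FOXA1 call was also lost with RLE scaling (adjusted p = 0.0502) and with a replicate block (adjusted p = 0.0798), and the AP1M2 call with library size alone (adjusted p = 0.066).

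Among regulators, ETS1 differed by 1.38 (adjusted p = 2.6e-16), HMGA2 by -0.65 (adjusted p = 1.2e-08) and TCF4 by -2.73 (adjusted p = 0.0341). The TCF4 value rests on 0 to 1 reads in DU145 vehicle and 1 to 7 in DU145 pentamidine, and it was lost without DU145 pentamidine replicate 3 (adjusted p = 0.203). Among structure genes, MAP1B differed by 1.32 (adjusted p = 6.5e-10), COL5A2 by 0.45 (adjusted p = 1.2e-05) and CD44 by -0.30 (adjusted p = 1.0e-04).

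No group of 3 libraries was tested for single outlying libraries. As a description, each pair of replicates was compared by a mean chi-square per gene, scaled for depth. PC3 vehicle replicate 1 gave 5.98 and 7.3 against replicates 2 and 3, and every other pair within a group gave 1.72 to 3.64.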

How the results depend on the processing

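VIM in both lines and ZEB1 in PC3 rose under every alternative run, at log2 fold changes of 0.26 to 0.37, 0.38 to 0.47 and 0.32 to 0.38. CDH2 (4.87 to 6.00), ZEB2 (4.15 to 5.17) and ZEB1 (-0.78 to -0.67) also kept their baseline calls. The VIM baseline difference (0.10 to 0.20) passed in 8 of its 17 settings.

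Without the filter on low counts, identity genes passing numbered 5 instead of 3 between the lines and 4 instead of 2 in PC3. Leaving out 1 library gave 3 to 5 between the lines. For the interaction, 1 instead of 2 passed under DESeq2, with at least 10 counts in every sample and with limma on log2(CPM + 1) or log2(CPM + 0.1), and 0 at an adjusted p below 0.01 (ZEB1 0.0115), where 1996 instead of 3112 genes passed. Leaving out 1 library gave 2644 to 3268.

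Genes called past a log2 fold change of 1 fell, with at least 10 counts in every sample, from 2768 to 1432 between the lines, from 658 to 431 in PC3 and from 290 to 154 in DU145, as fewer genes were tested. With limma on log2(CPM + 1), which shrinks low genes, they were 332 in PC3 and 109 in DU145.

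Directions turned only for values that passed in no setting. ZEB2 in PC3 was -0.02 and -0.04 without vehicle or pentamidine replicate 3. CDH2 in DU145 ran from -0.63 to 0.15 without 1 library, above 0 without vehicle replicate 3 and, at 0.07, without pentamidine replicate 2. CTNNA1 in DU145 was 0.02 with library size alone and with both limma fits. The CDH2 interaction was 0.00 with library size alone, -0.06 with limma on log2(CPM + 1), and -0.26, -0.03 and -0.20 without DU145 vehicle replicate 3 and pentamidine replicates 1 and 2, with 0.51 the highest without 1 library. Genes under about 25 reads per library (CDH1, EPCAM, GRHL2, ESRP1, SNAI2, and CDH2 and ZEB2 in DU145) are limited by depth.

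The replicate numbers gave no sign of pairing, with deviations of same-numbered libraries correlated at -0.227 to 0.0712. Differently numbered libraries reached -0.195 and 0.202 between PC3 vehicle and pentamidine, so a shared batch under other numbers cannot be told from these values. With a replicate block 9430 genes passed between the lines, 5599 in PC3, 4794 in DU145 and 2803 for the interaction. Of the identity genes 4, 2, 1 and 2 passed, VIM joining between the lines (adjusted p = 0.039), and the FOXA1 interaction was lost (adjusted p = 0.0798).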
